A study of Mus musculus with 12 samples.

Results

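The 10 genes described here, Acta2, Actg2, Myh11, Des, Tagln, Cnn1, Mylk, Smtn, Myl9 and Tpm2, encode the contractile apparatus of smooth muscle, and they are 10 of the 19937 genes that the arrays measured through a probe set naming a single gene symbol. They were listed by symbol, with earlier results of these data known, and each was read from its only such probe set. The arrays held total RNA from the small intestine of wild-type male FVB mice, an inbred albino strain, with a labelled age of 8 weeks. For 8 weeks, 6 mice received a low P/S diet, poor in polyunsaturated relative to saturated fatty acids, and 6 received a control high-fat diet. The 6 arrays of each diet are described as biological replicates in the design text. The labels give neither the segment of the small intestine nor whether its muscle coat was kept or scraped off.

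Smooth muscle contracts when calcium, bound to calmodulin, activates a kinase that phosphorylates the light chain of its myosin, which then pulls on actin filaments. The filaments are anchored in dense bodies and held by a network of intermediate filaments. In the gut this muscle forms the circular and longitudinal layers that drive peristalsis, the muscularis mucosae and thin strands inside the villi, and it also lines arteries. Many of its contractile genes carry CArG boxes, the binding sequences of serum response factor (Srf), which acts on them together with its coactivator myocardin (Myocd).

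The comparison asked whether a more saturated dietary fat went with a different level of these transcripts in the intestinal wall. It also asked how far the arrays of a diet differed among themselves. None of the 10 genes differed between the diets by limma, while 25.7% of the 11962 genes tested did. All 10 had a slightly lower mean on the low P/S diet, with log2 differences (low P/S minus control) between -0.12 and -0.01. Low P/S array 6 was the lowest of all 12 arrays for 9 of the 10 genes, and control array 4 was the highest for all 10. The level of a transcript in a piece of gut wall depends on how much muscle it holds as well as on the RNA per muscle cell, and these arrays cannot tell the 2 apart.

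Values are deposited intensities on a linear scale, whose background correction and normalization are not given in the sources used here. They are compared between arrays within a gene and never between genes. The median intensity of an array lay between 91.9 and 99.5. The RNA carried signal of intestinal epithelium, with the villin gene Vil1 at a geometric mean of 4227 in low P/S mice and 5188 in control mice, so the muscle genes were read from a mixture of tissue layers. Vil1 had the lowest log2 difference (-0.30) of 10 epithelial genes, whose median was -0.01 and whose highest was 0.20.

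The actins come first. Acta2 (probe set 10467124) encodes smooth muscle alpha-actin, which is also made in myofibroblasts and pericytes. It had a lowest, median and highest intensity of 2067, 3045 and 3278 on the low P/S diet, against 2541, 2996 and 3960 on the control diet. The lowest value was that of low P/S array 6 and the highest that of control array 4, and the other 5 low P/S arrays lay inside the range of the controls. Its mean was 2927 ± 434 on the low P/S diet and 3112 ± 479 on the control diet (SD, n = 6 each), a log2 difference of -0.09 ± 0.11 (standard error; limma adjusted p = 0.576).

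Actg2 (probe set 10545707), the enteric gamma-actin of visceral smooth muscle, ran from 663 through a median of 995 to 1052 on the low P/S diet, against 847, 980 and 1258 on the control diet. The medians of the diets differed less than the arrays of either diet, and the same arrays stood at the ends. Its log2 difference was -0.11 ± 0.11 (limma adjusted p = 0.512).

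Next come the motor and its light chain. Myh11 (probe set 10437885), the smooth muscle myosin heavy chain and the most restricted of the usual smooth muscle markers, had a lowest, median and highest intensity of 1362, 1833 and 1890 on the low P/S diet, against 1558, 1793 and 2516 on the control diet. Without control array 4 the controls reached 1849, so that 1 array set the upper end. The log2 difference was -0.10 ± 0.10 (limma adjusted p = 0.487).

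Myl9 (probe set 10477920) encodes the regulatory light chain whose phosphorylation starts contraction. It ran from 754 through 1195 to 1261 on the low P/S diet, against 1072, 1151 and 1584 on the control diet. It had the widest spread of the 10 genes, with a 2.10-fold ratio between the highest and the lowest of the 12 arrays, and the largest mean difference, -0.12 ± 0.12 on the log2 scale (limma adjusted p = 0.481).

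Mylk (probe set 10435345), the kinase that phosphorylates this light chain, varied far less. Its intensities were 715, 752 and 789 (lowest, median and highest) on the low P/S diet, against 722, 752 and 908 on the control diet, and the diet difference was -0.05 ± 0.06 on the log2 scale (limma adjusted p = 0.545). It was the gene for which low P/S array 6 (723) was not the lowest, since array 3 lay just below it. Mylk also encodes a long non-muscle kinase that epithelium and endothelium use, and the probe set carries 1 value for all its transcripts.

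Among the regulators of the thin filament, Tpm2 (probe set 10512499), a tropomyosin that lies along actin, ran from 363 through 444 to 453 on the low P/S diet, against 399, 438 and 632 on the control diet. Its spread was wider among the controls (log2 SD 0.24) than on the low P/S diet (0.12), and control array 4 stood well above the other 5. The diet difference was -0.11 ± 0.10 on the log2 scale (limma adjusted p = 0.426).

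Cnn1 (probe set 10583809), calponin, which inhibits the myosin ATPase on actin, had intensities of 247, 360 and 384 on the low P/S diet, against 301, 353 and 438 on the control diet. Tagln (probe set 10593123), transgelin or SM22-alpha, an actin-binding relative of calponin, had 535, 768 and 851 on the low P/S diet, against 641, 759 and 971 on the control diet. In both genes the low P/S median lay above the control median while the low P/S mean lay below the control mean. Their log2 differences were -0.06 ± 0.10 for Cnn1 and -0.04 ± 0.11 for Tagln (limma adjusted p = 0.688 and 0.820).

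Des (probe set 10347583), desmin, the intermediate filament protein of muscle, had 327, 457 and 536 on the low P/S diet, against 406, 433 and 595 on the control diet, with a log2 difference of -0.01 ± 0.11 (limma adjusted p = 0.964). Its sign depended on the scaling, since centring each array on its median gave 0.02. Smtn (probe set 10383731), smoothelin, an actin-associated protein of contractile smooth muscle cells, had the narrowest spread of all, with 202, 210 and 218 on the low P/S diet against 206, 218 and 246 on the control diet. Its log2 difference of -0.08 ± 0.05 had the smallest p of the 10 genes (limma adjusted p = 0.262).

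**Figure D1:**
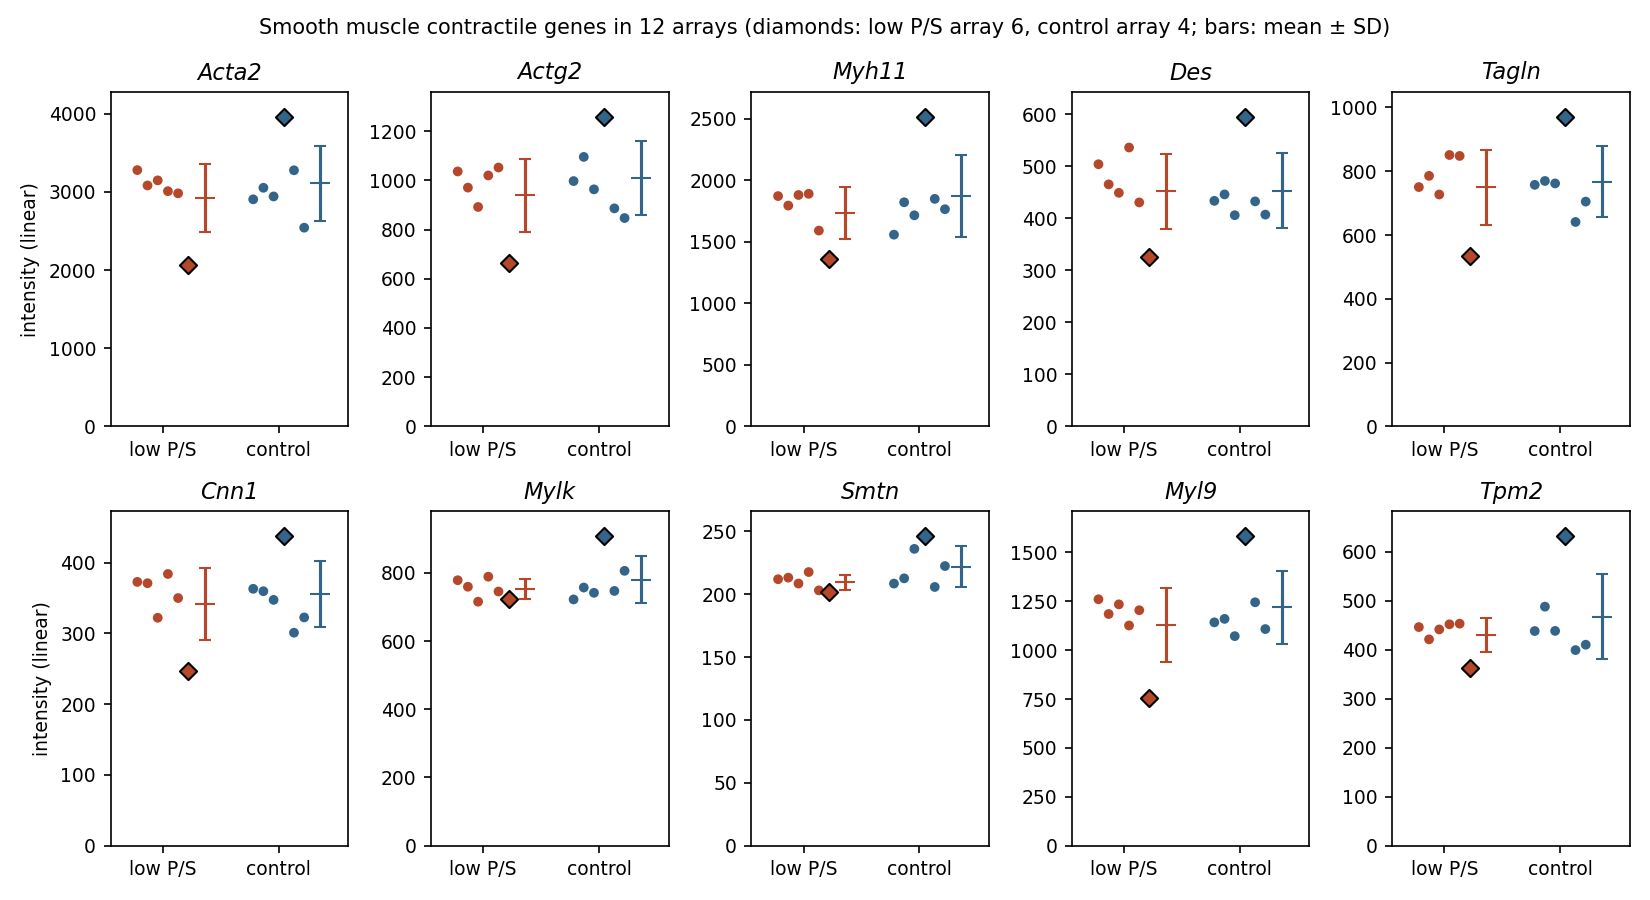
Intensity of each smooth muscle contractile gene (linear axis from 0) in the 6 low P/S arrays (red, left) and the 6 control arrays (blue, right), with the mean ± SD beside the points. Diamonds mark low P/S array 6, the lowest array for 9 of the 10 genes, and control array 4, the highest for all 10.

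Over the list, 0 of 10 genes passed at an adjusted p under 0.05 (limma with Benjamini-Hochberg adjustment), and 0 had an unadjusted p under 0.05. Of all genes tested, 17.8% passed as higher and 7.87% as lower on the low P/S diet, 2132 and 942 genes, a split that quantile normalization moved to 1773 and 1543. In no member were the diets separated, whereas the arrays of the diets did not overlap for 10.8% of the genes tested. Of the 60 low P/S values of the list, 49 lay inside the range of the 6 control arrays of the same gene. That count was not made over all genes tested, so it describes the overlap and is no trait of these genes. The median difference of the list was -0.09 on the log2 scale, against 0.02 over all genes tested, and 44.2% of all genes had a negative difference.

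The 95% intervals of the 10 differences reached from -0.37 for Myl9 to 0.23 for Des on the log2 scale, so that levels up to 1.29-fold lower or 1.17-fold higher on the low P/S diet lay inside at least 1 of them. Smtn and Mylk had the tightest intervals, from -0.19 to 0.03 and from -0.17 to 0.07. With quantile normalization the differences were larger, with a median of -0.15 and a range from -0.21 for Myl9 to -0.08 for Des, and none passed (limma, smallest adjusted p = 0.0929, for Smtn). A lack of a passing test does not show that the diets had equal levels.

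The differences were recomputed without the arrays at the ends. Without low P/S array 6 the median difference of the list was -0.01, and without control array 4 it was -0.02. With both left out it was 0.06, and 9 of the 10 genes then had a higher mean on the low P/S diet, of which none passed (limma, smallest adjusted p = 0.0911, for Des; 1 unadjusted p under 0.05). These arrays were picked for their values in these very genes, and leaving out the lowest low P/S array and the highest control array moves any difference upward by construction.

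**Figure D2:**
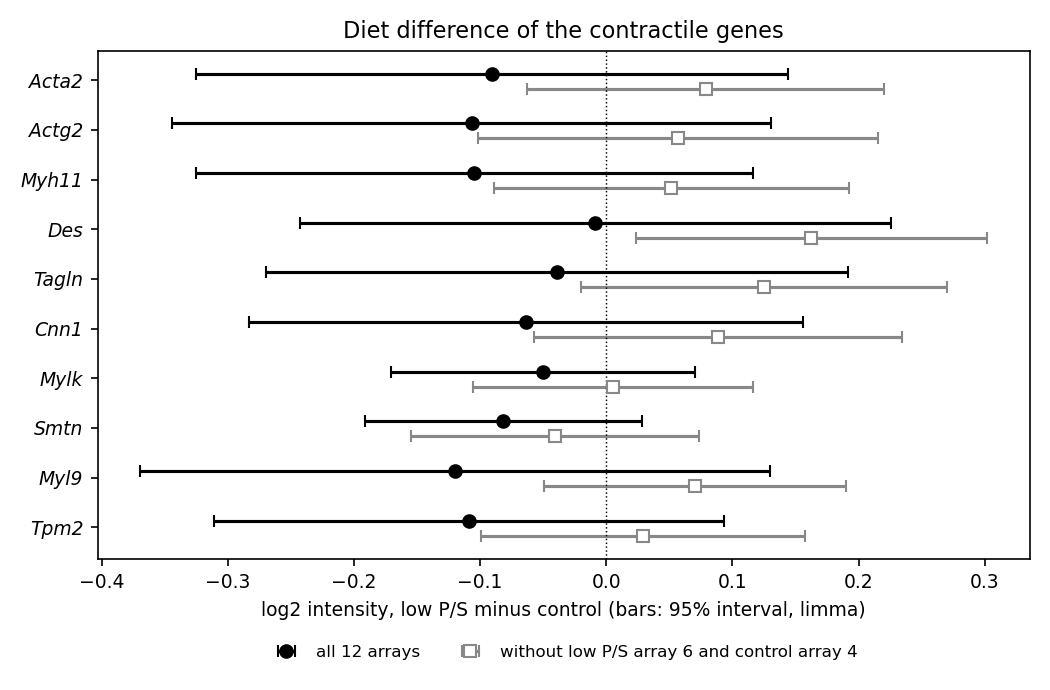
Difference in log2 intensity, low P/S minus control, with 95% intervals from limma, for each contractile gene over all 12 arrays (black circles) and without low P/S array 6 and control array 4 (open squares). All 10 black intervals include 0, and 9 of the 10 points move to the right of 0 without the 2 arrays.

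The spread between arrays was the larger feature of most of these genes. The residual SD of the fit, the spread between arrays of 1 diet on the log2 scale, had a median of 0.219 over the list, against 0.106 over all genes tested. It exceeded the 90th percentile of all genes in 8 members, from Tpm2 (0.193, percentile 93.3) to Myl9 (0.245, percentile 97.4). Mylk (0.0946, percentile 36.7) and Smtn (0.0795, percentile 20.2) lay below the median of all genes. The median SD within a diet was 0.240 on the low P/S diet and 0.205 on the control diet for the members, against 0.10 and 0.105 for all genes.

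Leaving out the same 2 arrays lowered the residual SD of all 10 genes, and the median fell to 0.101, against 0.108 over all genes tested under the same omission. Myl9 dropped to a residual SD of 0.0722 and Acta2 to 0.102. The arrays were picked as the extremes of these genes, so the fall was partly fixed by that choice, while for other genes the omission was not selected.

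**Figure D3:**
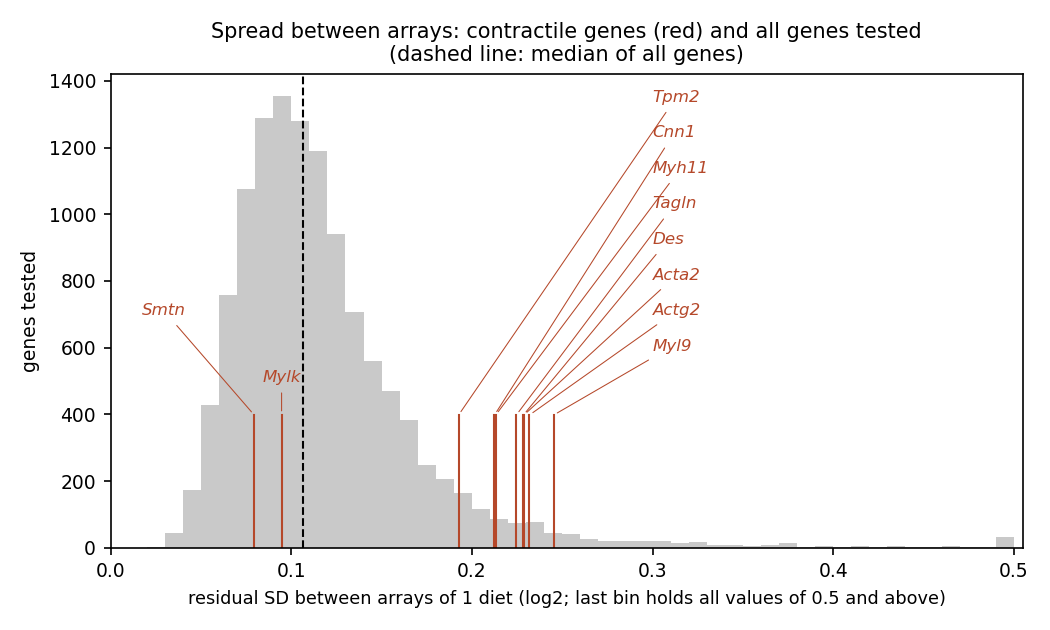
Histogram of the residual SD between arrays of 1 diet (log2 units) for the 11962 genes tested, with the 10 contractile genes marked in red and the median of all genes (0.106) as a dashed line. Smtn and Mylk lie left of the median and the other 8 genes lie in the right tail.

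The genes departed from their diet mean together. In low P/S array 6 all 10 lay below the mean of their diet, by between 0.05 and 0.56 on the log2 scale, and the mean deviation was -0.36 or 0.780 of the diet mean. In control array 4 all 10 lay above theirs, by between 0.15 and 0.45, with a mean deviation of 0.34 or 1.27 times the diet mean. The mean deviation of the other 10 arrays lay between -0.12 (control array 6) and 0.12 (low P/S array 4). Over all genes tested the median deviation was -0.01 in low P/S array 6 and 0.01 in control array 4, so these arrays were not dim or bright as a whole. Low P/S array 6 was the lowest of its diet for 15.1% of all genes, and control array 4 the highest of its diet for 15.2%.

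Pairs of members were compared over the 12 arrays after subtracting the mean of each diet, as a description. All 45 pairs had a positive Pearson's r, with a median of 0.78 (Spearman's rho 0.60). The closest pairs were Acta2 with Myl9 (r = 0.96, rho = 0.94) and Tagln with Cnn1 (r = 0.95, rho = 0.95), and the loosest was Smtn with Myl9 (r = 0.41, rho = 0.27). All genes are read from the same RNA on the same array, so the points share the dissection as well as the hybridization. Without the 2 extreme arrays the median r fell to 0.10 and 28 of 45 pairs were positive, but a fall follows from leaving out arrays chosen because these genes were jointly extreme there. Tagln with Cnn1 (r = 0.76), Actg2 with Cnn1 (r = 0.76), Actg2 with Tagln (r = 0.71) and Acta2 with Myl9 (r = 0.68) stayed high over the other 10 arrays. Other pairs turned as strongly negative there, among them Smtn with Myl9 (r = -0.76) and Tagln with Myl9 (r = -0.72). Over those 10 arrays the r of a member with the mean of the other members ran from -0.29 (Myl9) to 0.69 (Actg2). Other structural genes of smooth muscle had a median r of 0.56 with the mean of the members there. All genes tested outside the members had a median of 0.18. Since the omitted arrays were chosen by these genes, the values do not decide whether the members share a pattern there.

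Promoter sequence was examined because these genes varied together and CArG boxes are the textbook element that they share. RefSeq promoter windows of build GRCm38.p6 were found for 7 of the 10 genes (Acta2, Des, Tpm2, Cnn1, Smtn, Mylk and Myl9), and the 250 bases before the annotated start were searched on both strands. A CArG box in its exact form was found in 1 member, Myl9, and in 1.47% of all 32851 windows. With 1 base of its A/T core replaced by C or G, it was found in Acta2 and again in Myl9, and exact or replaced forms stood in 8.59% of all windows. The boxes are shown in capitals with 20 bases on either side, each on the strand of its gene. The Acta2 pair lies at chr19:34255428-34255477 and chr19:34255378-34255427 on the minus strand, with the boxes beginning 84 and 34 bases before the start. The Myl9 pair lies at chr2:156775283-156775332 (exact) and chr2:156775345-156775394 on the plus strand, with the boxes beginning 161 and 99 bases before the start.
Acta2 far box: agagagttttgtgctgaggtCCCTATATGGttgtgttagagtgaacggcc
Acta2 near box: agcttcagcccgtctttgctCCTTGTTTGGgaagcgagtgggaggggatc
Myl9 far box: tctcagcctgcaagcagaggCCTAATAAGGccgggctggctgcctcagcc
Myl9 near box: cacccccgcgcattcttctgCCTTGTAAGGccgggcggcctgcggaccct
A match is a description of letters and not of binding, and no match says only that the letters are not in this window.

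The genes outside the list whose array pattern was most like the mean of the 10 members included further smooth muscle genes. Of the 10 with the highest r among 11952 genes, 5 stood on the muscle lists used here. These were Pgm5 of adherens-type junctions (r = 0.96, rho = 0.94), the LIM protein gene Csrp1 (r = 0.95, rho = 0.97), the actin crosslinker gene Flna (r = 0.94, rho = 0.90), the caldesmon gene Cald1 (r = 0.94, rho = 0.89) and Kcnmb1, the beta subunit of the calcium-activated potassium channel of smooth muscle (r = 0.91, rho = 0.85). The others were Tm6sf1 (r = 0.96), Pcp4l1 (r = 0.94), the prohormone-processing carboxypeptidase gene Cpe (r = 0.93), the annexin gene Anxa1 (r = 0.91) and the mitochondrial ADP/ATP carrier gene Slc25a4 (r = 0.90). Over the 10 other arrays r was highest for Flna (0.78) and Csrp1 (0.68) and lowest for Slc25a4 (0.22). The median over all genes tested outside the members was 0.18 there, and Tm6sf1, the first by r over 12 arrays, had 0.33.

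Of all genes tested, 17.8% passed as higher and 7.87% as lower, the shares to set beside the list counts that follow. Of 19 other structural genes of smooth muscle, 1 passed as higher, 1 passed as lower and 17 did not pass. The first 4 of the list had log2 differences of -0.11 ± 0.08 for the leiomodin gene Lmod1, -0.06 ± 0.09 for the actin-bundling gene Synpo2, 0.03 ± 0.07 for the tropomyosin gene Tpm1 and -0.07 ± 0.09 for Cald1. Itga8, an integrin subunit gene, was higher on the low P/S diet by 0.17 ± 0.06, with intensities of 90.3 to 111 on the low P/S diet and 87.3 to 94.1 on the control diet (limma adjusted p = 0.0307). Its intensities lay close to the lower limit for testing, a geometric mean of 85.6. Omission of any 1 of low P/S arrays 1, 2 and 4 and control arrays 3, 4, 5 and 6 ended that call (highest adjusted p = 0.0843, without both extreme arrays). Ldb3, a Z-disc protein gene best known from striated muscle, was lower by 0.27 ± 0.06 on the log2 scale, at 206 to 259 on the low P/S diet and 254 to 308 on the control diet (limma adjusted p = 0.00407). Neither gene followed the array pattern of the members, since Ldb3 was above its diet mean in low P/S array 6 (0.17) and below it in control array 4 (-0.13), and Itga8 deviated by 0.02 and -0.01.

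Of 15 genes of excitation and signalling in smooth muscle, 1 passed as higher and 14 did not pass. The one was Chrm3, the muscarinic receptor that drives contraction, which was higher by 0.20 ± 0.06 on the log2 scale (limma adjusted p = 0.0218). Its intensities were 152 to 194 on the low P/S diet and 137 to 156 on the control diet, and epithelial cells carry this receptor too. Leaving out control array 3, control array 6 or low P/S array 4 ended the call (highest adjusted p = 0.0518). Chrm2, the more abundant muscarinic receptor of gut muscle, had a difference of -0.25 ± 0.14 (limma adjusted p = 0.182) and, like the members, stood high in control array 4 (0.63 above its diet mean) and low in low P/S array 6 (-0.42). The potassium channel genes Kcnmb1 and Kcnma1 had differences of -0.10 ± 0.09 and -0.00 ± 0.05. With quantile normalization 1 gene of this list passed as higher and 2 as lower.

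Of 10 transcriptional regulators, 1 passed as lower and 9 did not pass. Srf had a difference of 0.13 ± 0.05 (limma adjusted p = 0.0962), Myocd of -0.05 ± 0.06, and the myocardin-related factor genes Mrtfa and Mrtfb of -0.07 ± 0.04 and 0.04 ± 0.06. Myocd lay at intensities close to the lower limit for testing, at a geometric mean of 85.6 on the low P/S diet and 88.6 on the control diet. Klf4, a factor that represses smooth muscle genes and is also abundant in differentiated epithelium, was lower by 0.22 ± 0.07 on the log2 scale (limma adjusted p = 0.0391), a call that ended under 13 of 24 alternatives, among them median centring (adjusted p = 0.110) and the omission of any 1 of low P/S arrays 3, 4, 5 and 6 and control arrays 1, 2, 5 and 6.

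Non-muscle relatives of the contractile genes served as a contrast within the same protein families. Of 14 tested, 1 passed as higher and 13 did not pass. The beta-actin gene Actb had a difference of -0.09 ± 0.08, and the non-muscle myosin genes Myh9, Myh10 and Myh14 had 0.03 ± 0.06, 0.00 ± 0.06 and -0.06 ± 0.07. Tpm4, a cytoskeletal tropomyosin, was higher by 0.27 ± 0.08 on the log2 scale (limma adjusted p = 0.0221), with a median of 836 on the low P/S diet and 681 on the control diet. Omission of control array 3, low P/S array 1 or low P/S array 4 ended that call, as did 1 other setting (highest adjusted p = 0.0617, with an ordinary variance per gene). These relatives had a median residual SD of 0.108. Their mean deviation was -0.08 in low P/S array 6, where 11 of 14 lay below their diet mean, and 0.04 in control array 4, where 7 of 14 lay above it.

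Markers of other cells of the gut wall were set beside the 2 extreme arrays. Of all genes tested, 47.8% lay above their diet mean in low P/S array 6 and 54.0% in control array 4. The 19 other structural genes of smooth muscle deviated by -0.18 in low P/S array 6 and by 0.23 in control array 4 on average, in the direction of the members. Genes of fibroblasts deviated by -0.16 and 0.13, with 7 of 8 below their diet mean in the first array and 7 of 8 above it in the second. They ran from -0.54 (Dcn) to 0.11 (Fbln1) and from -0.01 (Pdgfra) to 0.34 (Dcn). Those of mesothelium, the outer lining of the gut, deviated by -0.21 and 0.20, with 3 of 3 below and 2 of 3 above. They ran from -0.36 (Upk3b) to -0.06 (Krt7) and from -0.12 (Krt7) to 0.55 (Upk3b). Pericyte and vascular smooth muscle genes deviated by -0.07 and 0.13, with 3 of 5 genes below their diet mean in low P/S array 6 and 4 of 5 above it in control array 4. They ran there from -0.42 (Rgs5) to 0.20 (Notch3) and from -0.0046 (Pdgfrb) to 0.45 (Rgs5). Genes of interstitial cells of Cajal, the pacemaker cells of gut muscle, deviated by -0.07 and 0.17, with 3 of 5 below and 4 of 5 above. They ran from -0.26 (Gja1) to 0.05 (Kit) and from -0.05 (Thbs4) to 0.34 (Gja1).

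For the remaining lists, mean deviations in low P/S array 6 and control array 4 were -0.01 and 0.05 for enteric neurons and glia (5 genes), 0.01 and 0.03 for striated muscle (6 genes), 0.01 and -0.02 for endothelium (8 genes), -0.06 and 0.01 for epithelium (10 genes) and -0.07 and 0.05 for immune cells (6 genes). In low P/S array 6, 9 of 10 epithelial and 5 of 6 immune genes lay below their diet mean. So did 3 of 5 genes of neurons and glia, 3 of 6 of striated muscle and 3 of 8 of endothelium. In control array 4, 6 of 10 epithelial and 4 of 6 immune genes lay above theirs, with 3 of 5, 3 of 6 and 3 of 8 in the other lists. Mesenteric fat genes deviated by -0.07 and 0.13 (3 genes), within a range over all arrays from 0.38 in low P/S array 1 to -0.52 in control array 1. Exocrine pancreas genes deviated by 0.01 and 0.02 (3 genes). In the fat and the pancreas list alike, 1 of 3 genes lay below its diet mean in low P/S array 6. In control array 4, 2 of 3 lay above it in each. The part of tissue sampling in the pattern of the contractile genes was not tested.

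**Figure D4:**
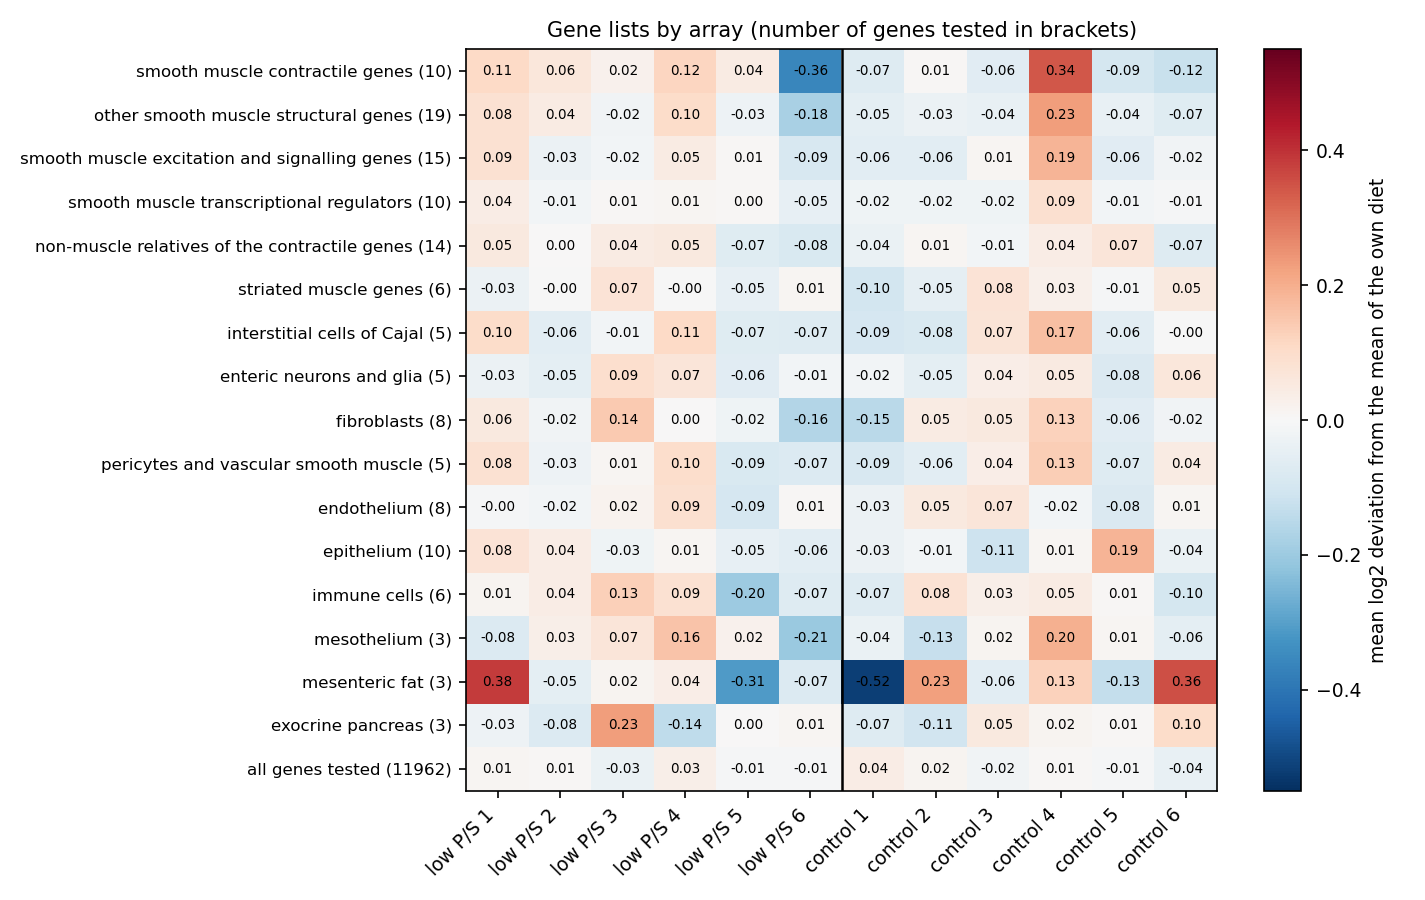
Mean deviation of each gene list from the mean of its own diet (log2 units; red above, blue below) in the 6 low P/S arrays (left) and the 6 control arrays (right), with the number of genes tested in brackets. The contractile genes reach -0.36 in low P/S array 6 and 0.34 in control array 4, where all genes tested average -0.01 and 0.01.

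Of 8 fibroblast genes, from cells that share the mesenchyme with smooth muscle, 4 passed as higher, 1 passed as lower and 3 did not pass, where 17.8% and 7.87% of all genes did in these directions. With quantile normalization 2 passed as higher. The collagen genes Col1a1, Col1a2 and Col3a1 were higher by 0.19 ± 0.05, 0.22 ± 0.05 and 0.24 ± 0.06 on the log2 scale (limma adjusted p = 0.00846, 0.00816 and 0.00525), and Pdgfra, a growth factor receptor of mesenchymal cells, by 0.44 ± 0.07. The extracellular matrix gene Fbln1 was lower by 0.47 ± 0.07 on the log2 scale. Dcn, the decorin gene, had a difference of 0.16 ± 0.15 (limma adjusted p = 0.437) and followed the members in low P/S array 6 (-0.54) and control array 4 (0.34). Those lost under that normalization were Col1a1 and Col1a2 (limma adjusted p = 0.0760 and 0.0551). Whether the diet difference of collagen genes differs from that of the contractile genes was not tested.

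In the remaining lists, 2 of 8 endothelial genes passed as higher and 4 of 10 epithelial genes passed as lower. Of 6 immune genes, 3 passed as higher and 2 as lower. Among pericyte genes 1 of 5 (Pdgfrb) and among mesothelial genes 1 of 3 (Krt7) passed as higher. Over all genes tested the shares were 17.8% higher and 7.87% lower, and these short lists were not tested against them. In enteric neurons and glia 1 of 5 passed as lower (Stmn2), and none passed among 5 genes of interstitial cells of Cajal, 6 of striated muscle, 3 of mesenteric fat and 3 of exocrine pancreas. The epithelial count was 1 with median centring and 1 without the extreme arrays, and the endothelial count was 4 with quantile normalization or median centring.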

How the data were processed

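Gene expression was measured on Affymetrix whole-transcript arrays from 500 ng of total RNA without removal of ribosomal RNA, per the labels' protocols. The authors deposited an untransformed intensity for every probe set on every array, between 17.7 and 20294. Summarization, background correction and normalization by the authors are not given in the sources used here. Precision is limited by there being 6 arrays per diet. Of 34760 probe sets, 21640 named 1 gene symbol, 1321 several and 11799 none. Symbols were checked through Entrez IDs (21553 matched, 0 updated). The brightest single-symbol probe set per gene by its mean over 12 arrays was kept, log2 was taken, and the dimmest 40% of genes (7975, with a geometric mean under 85.6) were left out. All 10 contractile genes passed this filter, the dimmest at a geometric mean of 215.

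Diet was the single term of a linear model fitted in R 4.3.3 with the limma 3.58.1 functions lmFit and eBayes. Its two-sided p-values received Benjamini-Hochberg adjustment across 11962 genes, with a threshold of 0.05. On simulated data of this comparison with 11962 genes, 32, 49, 50 and 50 of 50 genes planted at log2 differences of 0.25, 0.5, 1 and 2 were recovered, and 8 of 189 calls were false. Recovery at the spread of the contractile genes was not tested (median residual SD 0.219, against 0.106 over all genes tested). Deviations, spreads and correlations were computed with pandas 2.3.3, NumPy 2.4.6 and SciPy 1.17.1 under Python 3.11.15, and drawn in matplotlib 3.10.9.

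The members and gene lists were chosen with earlier results of these data known. The genes that could be named were the members, the first 4 tested genes of each list, passing genes of lists with 5 or fewer of them, and the 10 genes most like the members by Pearson's r of diet-centred values. Of these, diet differences are given for the muscle lists, the non-muscle relatives, fibroblasts and Vil1. The values given for Vil1, for Chrm2 by array and the extreme genes of the fibroblast, mesothelial, pericyte and interstitial cell lists were chosen after their values were seen. Same-numbered arrays of the diets were not treated as pairs.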

Additional observations from a re-analysis of the deposited data

Results flagged for a closer look

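Each gene was examined in each diet for an array standing apart from the other 5, by the gap to its neighbour as a share of the whole range and against Dixon's 95% critical value for 6 arrays. Chance flags about 1 in 20 groups, and of 20 groups examined 7 had such an array. Low P/S array 6 stood apart for Acta2 (0.794), Myl9 (0.781), Tpm2 (0.668), Tagln (0.661) and Actg2 (0.642), in each as the lowest. Control array 4 stood apart as the highest for Des (0.755) and Myh11 (0.643). The genes share the arrays, so these are not independent flags. Over all 11962 genes tested, low P/S array 6 stood apart as the lowest for 0.359% and control array 4 as the highest for 0.560%.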

How the results depend on the processing

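The contractile genes were recomputed under 24 alternatives each, of which the omission of control array 4 with low P/S array 6 was chosen after seeing the data. None of the 10 genes passed under any of them (smallest adjusted p = 0.0911, for Des without both arrays; 2 of 240 member values had an unadjusted limma p under 0.05). Over all genes, between 2409 and 3855 passed. Quantile normalization gave 1773 higher and 1543 lower, against 2132 higher and 942 lower as deposited, a share of 53.5% higher. Without both extreme arrays the differences were 0.079 for Acta2, 0.057 for Actg2, 0.052 for Myh11, 0.16 for Des, 0.12 for Tagln, 0.089 for Cnn1, 0.0054 for Mylk, 0.070 for Myl9 and 0.029 for Tpm2, opposite in sign to the fit of all 12, and likewise 0.073 for Cald1, 0.075 for Synpo2, 0.017 for Kcnma1, 0.030 for Kcnmb1, 0.021 for Myocd and -0.0023 for Myh9. Median centring turned Des (0.017) and Kcnma1 (0.024). Quantile normalization turned Mrtfb (-0.017), Myh9 (-0.061) and Tpm1 (-0.067), the mean of probe sets Myh9 (-0.015) and array weights Myh10 (-0.0048). Leaving out 1 array at a time, differences ran from -0.15 to 0.0065 for Acta2, -0.11 to 0.026 for Cnn1, -0.062 to 0.082 for Des, -0.089 to 0.055 for Tagln, -0.11 to 0.013 for Cald1, -0.045 to 0.021 for Kcnma1, -0.031 to 0.025 for Myh10, -0.10 to 0.0085 for Synpo2 and -0.0026 to 0.073 for Tpm1, and those of Actg2, Myh11, Mylk, Smtn, Myl9 and Tpm2 kept their sign. The median difference of the list ran from -0.11 to -0.01 in these omissions and was -0.15 with quantile normalization, where Actg2 had -0.20, Mylk -0.14, Tagln -0.13 and Myl9 -0.21. The median residual SD was 0.101 without both extreme arrays and 0.160 with the replicate block, and ran from 0.163 to 0.231 without 1 array. With the replicate number as a block, 3530 genes and 0 members passed, and Srf did (limma adjusted p = 0.0480). The numbers are not stated to pair the mice, deviations of same-numbered arrays correlated between -0.11 and 0.42, and 2 of 6 low P/S arrays matched their own number best. The cause of these turns was not tested, beyond the omitted arrays themselves.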
